A study of Mus musculus with 3 samples.

Results

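The carriers described here are the members of 10 solute carrier (SLC) families that move sugars, amino acids and small peptides across membranes: Slc1, Slc2, Slc3, Slc5, Slc6, Slc7, Slc15, Slc36, Slc38 and Slc43. They were chosen by symbol from the protein-coding rows of the count table, with no measured value in the rule. The rule found 94 of 35824 genes. One of them, Slc7a6os, is named for its place opposite Slc7a6 and encodes a nuclear import factor, not a carrier, so 93 carriers were used in all counts and sums.

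The cells were intestinal epithelial cells (IEC) from mouse small intestinal organoids (SIO), which are crypt-derived epithelial structures grown in Matrigel. All 3 libraries belong to 1 group, IEC + ILC3. The organoids came from the ileum of female CD45.1 C57BL/6 mice, given as 6 to 8 weeks old in the labels. They were co-cultured for 4 days with type 3 innate lymphoid cells (ILC3) sorted from the intestinal lamina propria of GFP reporter mice, in growth medium with IL-2, IL-7 and IL-15, before EpCAM-positive, CD45-negative cells were sorted. Libraries A and B were used in the study's final analysis and library C was left out of it, with no reason given in the sources used here. Organoids without ILC3 (IEC ONLY) were not analysed here, so nothing below compares co-culture with its absence. The labels call the libraries biological replicates without saying whether they came from separate animals, so the spread between them may be technical.

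Absorptive enterocytes take up glucose, fructose, amino acids and small peptides through carriers of the brush border, the apical membrane that faces the gut lumen, and pass them to the blood through carriers of the basolateral membrane. Many of these carriers draw on sodium or proton gradients across these membranes. Some amino acid exchangers are pairs of a heavy chain from the Slc3 family, which brings the complex to the membrane, and a light chain from the Slc7 family, which does the transport. Dividing cells use a partly different set that imports glutamine, arginine and cystine and reports amino acid supply to the growth kinase mTORC1.

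Library totals of A, B and C were 17946361, 23142849 and 28913885 counts. A count of 3, taken per library as the limit that a count of 0 allows, was worth 0.164, 0.131 and 0.105 CPM (counts per 1000000 counts of the library), and such limits cover counting error only. Epithelial marker genes (Epcam, Krt8 and 6 others) summed to 11505, 12530 and 13248 CPM in A, B and C. Of 15 ILC3 and lymphocyte markers, 8 were at 0 in all libraries. Ptprc, which encodes CD45, had 0.0547 CPM in A and 0 in B and C. B cell and myeloid markers summed to at most 8.22 CPM and stromal and endothelial markers to at most 2.35 CPM.

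Of the 93 carriers, 44 had at least 10 counts in every library and 48 had them in both A and B. Another 26 were at 0 counts in all 3 libraries, among them Slc6a14, a broad amino acid importer, the glutamine carriers Slc38a3 and Slc38a5, the kidney glucose carrier Slc5a2 and the proton-coupled Slc36a2, Slc36a3 and Slc36a4. In 8 more the highest count was 9 or fewer. Levels of different genes were compared as CPM per kilobase (kb) of transcript. On that scale the carriers summed to 874 in A, 801 in B and 668 in C. The sum was concentrated in few genes: the 10 highest carriers of each library took 67.6% of it in A, 66.3% in B and 72.4% in C. Of these 10, A and B shared 7, A and C shared 8, and B and C shared 8.

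The carrier with the highest level was Slc3a2 (chromosome 19, 8706882 to 8723369, minus strand, GRCm38), the heavy chain of the basolateral exchangers, at 136, 162 and 138 CPM per kb in A, B and C, which ranked first in each library. Slc5a1 (chromosome 5, 33104219 to 33162870, plus strand), the sodium-glucose carrier SGLT1 of the brush border, followed at 101, 53.9 and 51.2 CPM per kb. Slc1a5 (chromosome 7, 16781340 to 16798274, plus strand), a glutamine and neutral amino acid exchanger, had 66.5, 74.7 and 69.2 CPM per kb. The order of Slc5a1 and Slc1a5 turned between A and the other libraries, so these neighbours did not differ beyond their spread, while Slc3a2 stayed above both. The rank of Slc3a2 depended on dividing by length. In CPM not divided by length, Slc3a2 had 247, 294 and 251 in A, B and C. Slc5a1 had 413, 221 and 210 and so led in A. The next highest by the mean of A and B were Slc7a7 at 50.8 ± 18.2 CPM per kb (SD, n = 2), Slc2a1 at 40.2 ± 1.41, Slc7a4 at 35.7 ± 9.56, Slc3a1 at 34.8 ± 4.93, Slc38a2 at 34.0 ± 6.12, Slc6a6 at 33.9 ± 1.58 and Slc38a10 at 30.9 ± 3.92. The 6 from Slc2a1 to Slc38a10 lay closer to their neighbours than the SD of the noisier one of each pair.

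**Figure D1:**
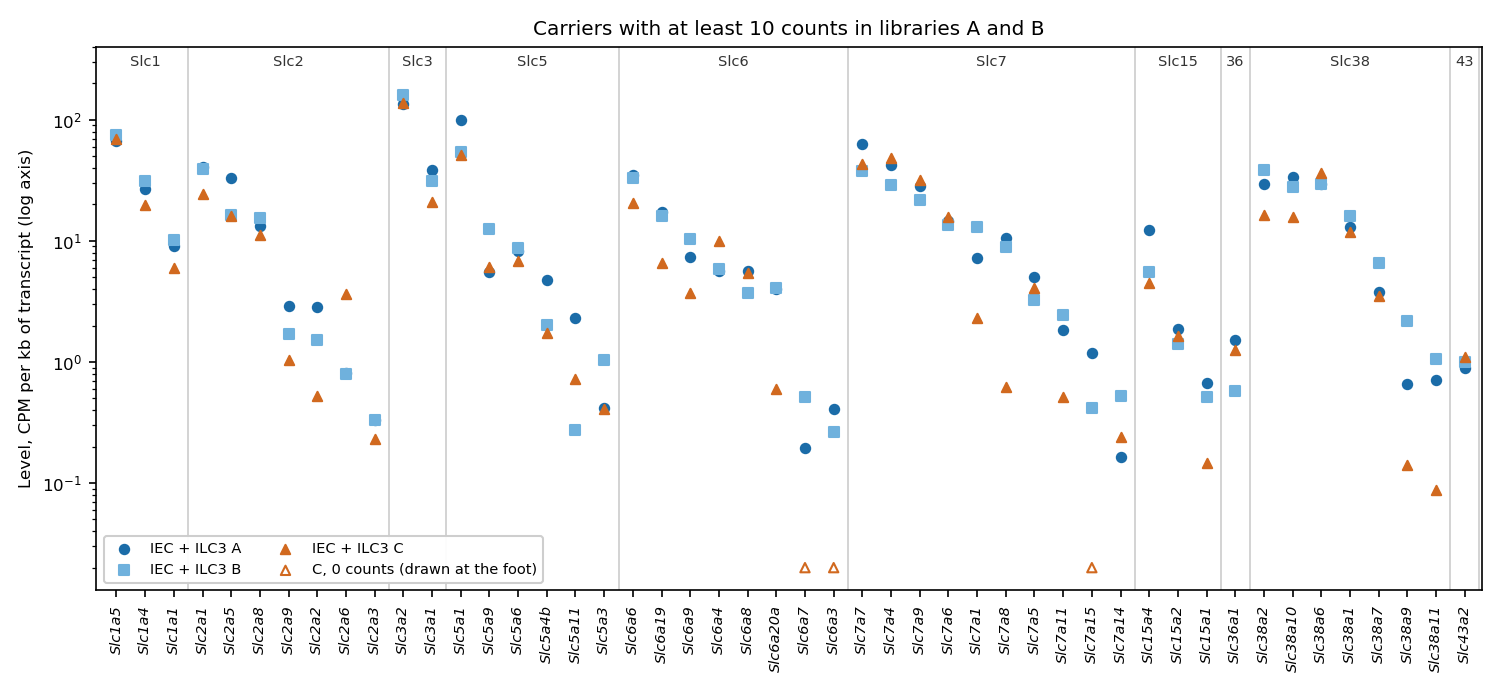
Level of each carrier with at least 10 counts in libraries A and B, in CPM per kb of transcript on a log axis, grouped by SLC family, with 1 point for each library and open symbols at the foot for 0 counts. Slc3a2 stood highest at 136 to 162 CPM per kb, and in library C Slc7a8, Slc6a20a and Slc38a9 fell far below their points in A and B.

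By family, the Slc3 heavy chains held 22.0% ± 2.96 (SD, n = 2) of the summed CPM per kb in A and B with only 2 genes, and the Slc7 family held 18.2% ± 2.61 with 15. The Slc38 family of sodium-coupled neutral amino acid carriers held 14.0% ± 1.80, the Slc1 family of acidic and neutral amino acid carriers 13.1% ± 1.99, the Slc5 sodium-sugar family 11.9% ± 2.93, the Slc2 family of facilitative sugar carriers 10.2% ± 0.983 and the Slc6 family, the largest with 21 members, 8.97% ± 0.391. Slc15, the peptide carriers, held 1.35% ± 0.573. Slc43 at 0.136% ± 0.0131 and Slc36 at 0.123% ± 0.0712 were close to absent from the sum. The order of Slc3 and Slc7 turned in A, at 19.9% and 20.1%, and the order of Slc38, Slc1 and Slc5 differed between the libraries. Slc2 lay below these 3 families in every library, though in B Slc5 exceeded it only by 9.81% to 9.48%. Slc15, Slc43 and Slc36 lay below the other 7 families in every library. No test was made, since there is 1 group. The shares and their order turned on the length used: with CPM not divided by length Slc3 held 13.6%, and with the length of all transcript models Slc1 held 5.91%, Slc38 6.63%, Slc5 5.52%, Slc15 2.35% and Slc6 20.7%.

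**Figure D2:**
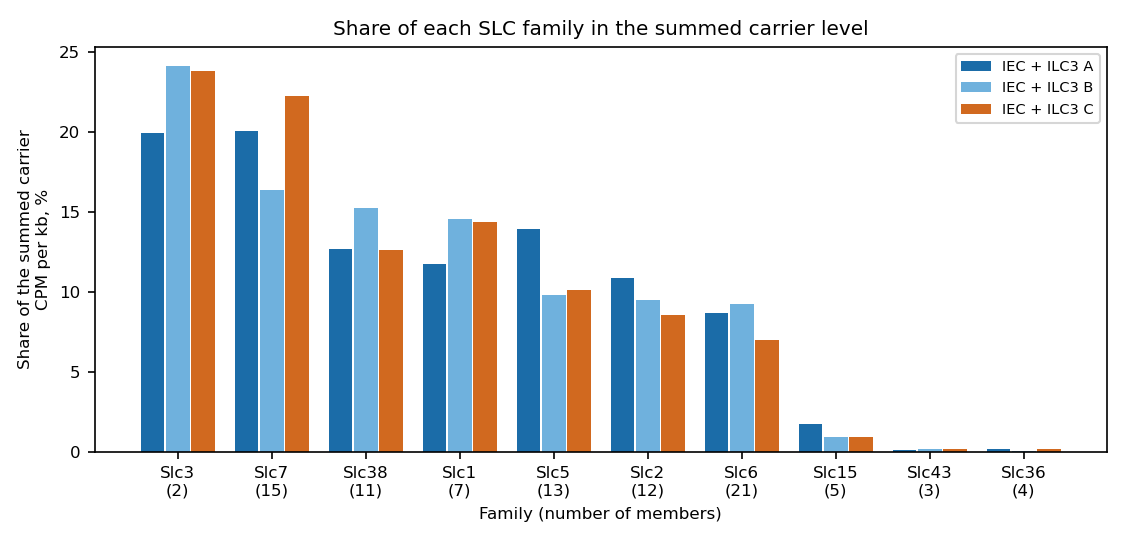
Share of each SLC family in the summed carrier level (CPM per kb of transcript), in percent, with 1 bar for each library and the number of members in brackets. Slc3 and Slc7 led in C at 23.8% and 22.2%, and Slc15, Slc43 and Slc36 stayed under 2% in all 3 libraries.

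Within families the level rested on single genes. Slc3a2 made up 81.0% of the Slc3 level in A and B, Slc5a1 77.1% of Slc5, Slc15a4 78.1% of Slc15, Slc43a2 83.1% of Slc43 and Slc1a5 64.5% of Slc1. Slc2 and Slc6 were more even, with Slc2a1 at 47.0% and the taurine carrier Slc6a6 at 45.3%, and Slc38 and Slc7 were the most even by this measure, with Slc38a2 at 29.2% and Slc7a7 at 33.1%. The second members were Slc1a4 (an alanine, serine and cysteine exchanger) at 29.1 CPM per kb, Slc2a5 at 24.8, Slc5a9 at 9.04, Slc6a19 at 16.8, Slc15a2 at 1.63 and Slc43a1 at 0.182, as means of A and B.

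Among the sugar carriers, the glucose importer Slc5a1 and the fructose importer Slc2a5 (GLUT5) kept the same order across the libraries. Slc5a1 had 413, 221 and 210 CPM in A, B and C and Slc2a5 had 105, 51.9 and 50.9 CPM. Both were about as high in C as in B, and A stood alone above them. Their ratio per kb was 3.03, 3.28 and 3.18. Slc2a2 (GLUT2), which passes glucose and fructose to the blood, was low at 15.9, 8.50 and 2.94 CPM. Slc2a1 (GLUT1), a glucose carrier of most dividing cells, had 134, 128 and 79.7 CPM, and per kb it exceeded Slc2a2 by 14.4, 25.7 and 46.4 times.

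The other sugar carriers of the intestine were lower. Slc5a9, which takes up mannose and fructose, had 18.7, 42.6 and 20.8 CPM, and B stood alone above A and C. Slc5a4b had 15.3, 6.45 and 5.59 CPM while its relative Slc5a4a was at 0 in all 3 libraries. The inositol carriers Slc5a3 and Slc5a11 had 4.59, 11.2 and 4.44 CPM and 5.08, 0.610 and 1.61 CPM. Slc2a7 had 11 counts in A (0.601 CPM, exact 95% Poisson interval 0.300 to 1.08, counting error only) and 0 in B and C. The 10 sugar carriers of this list summed to 191, 127 and 101 CPM per kb.

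At the brush border, the amino acid carriers were led per kb by Slc1a5, by the cystine and basic amino acid exchanger of Slc3a1 with Slc7a9, and by Slc6a6. Slc3a1 had 87.0, 71.2 and 47.6 CPM and Slc7a9 had 53.0, 40.8 and 59.8 CPM. The heavy chain exceeded its light chain per kb by 1.35 and 1.43 times in A and B, and in C the order turned to a ratio of 0.655. Of the 31-base words of Slc3a1 transcripts, 25.5% also occur in its overlapping neighbour Prepl, and reads from there cannot be told apart. Slc6a6 had 217, 203 and 127 CPM. Slc1a1, a glutamate and aspartate carrier, had 34.5, 38.4 and 22.8 CPM, and 31.5% of its words occur in other genes.

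Slc6a19 (chromosome 13, 73679745 to 73704865, minus strand), the main importer of neutral amino acids from the gut lumen, had 68.9, 63.4 and 25.9 CPM. Slc6a20a (chromosome 9, 123634770 to 123678885, minus strand), a proline carrier, had 13.2, 13.6 and 1.99 CPM. For both, A and B lay close together and C lay below. Slc36a1, a proton-coupled carrier of small amino acids, had 2.95, 1.13 and 2.45 CPM, and Slc6a18 had 1, 2 and 3 counts, no more than the limit that a count of 0 allows. The 10 carriers of this list summed to 200, 192 and 157 CPM per kb.

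The promoter of Slc3a1 is shown because it was the only 1 of 92 member promoters, of 69 carriers that RefSeq lists, with a match to the motif TGNACTTTG of the nuclear receptor HNF4, counted on both strands over 250 bases before and 50 after the start. Of all 32851 promoters, 1.41% held it. The stretch below (RefSeq, GRCm38.p6, chr17:85028097-85028346, plus strand) covers the 250 bases before the start, and the capitals mark the match, which lies on the opposite strand and begins 39 bases before the start.
Slc3a1: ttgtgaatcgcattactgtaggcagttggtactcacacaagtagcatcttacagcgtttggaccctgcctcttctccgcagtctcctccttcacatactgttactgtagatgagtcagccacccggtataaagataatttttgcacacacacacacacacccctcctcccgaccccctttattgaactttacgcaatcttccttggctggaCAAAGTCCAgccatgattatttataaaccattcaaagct
A match describes the letters only, and HNF4 binding was not measured. Hnf4a had 365, 311 and 203 CPM and was not called in C.

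At the basolateral membrane, Slc3a2 was set against its 6 light chains. The light chains summed to 95.9, 66.2 and 64.2 CPM per kb, so Slc3a2 exceeded their sum by 1.41, 2.44 and 2.15 times. These ratios depend on the transcript length taken for each gene. Slc7a7 (chromosome 14, 54369442 to 54417780, minus strand), which exports basic amino acids, made up 66.4%, 57.3% and 67.3% of that sum, from 136, 80.8 and 92.0 CPM. Slc7a6, a related exporter, made up 15.4%, 20.6% and 24.5%, from 55.3, 51.1 and 59.0 CPM. Slc7a5, the leucine carrier of growing cells, stayed at 5.23%, 4.91% and 6.40%, from 17.7, 11.4 and 14.4 CPM.

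Slc7a8 (chromosome 14, 54722209 to 54781946, minus strand), which exports neutral amino acids to the blood and lies less than a megabase from Slc7a7, was the light chain with the largest difference between C and the other libraries. Its levels were 43.5, 36.6 and 2.52 CPM. Its share of the light chain sum was 11.1% and 13.5% in A and B and 0.960% in C. Slc7a7 per kb exceeded it by 5.99 and 4.23 times in A and B and by 70.1 times in C. Slc7a10, the sixth light chain, was at 0 in all 3 libraries.

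**Figure D3:**
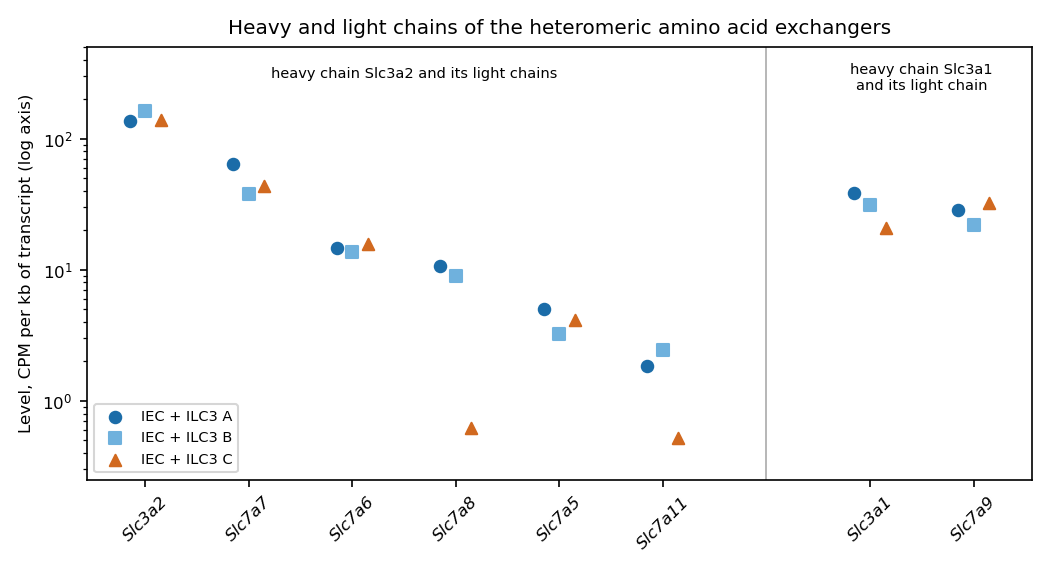
Level of the heavy chains Slc3a2 and Slc3a1 and of their light chains in CPM per kb of transcript on a log axis, with 1 point for each library. In library C Slc7a8 was at 0.616 CPM per kb against 10.6 and 8.96 in A and B, while Slc7a7, Slc7a6 and Slc7a5 stayed near their levels there.

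The remaining basolateral carriers were low. Slc43a2, a facilitative carrier of large neutral amino acids, had 6.29, 6.97 and 7.66 CPM, and Slc43a1 had 9, 10 and 0 counts. Slc38a3 and Slc38a5 were at 0 in all 3 libraries. The 9 carriers of this list summed to 231, 227 and 203 CPM per kb, the steadiest of the 5 role lists. Slc3a2 alone gave 136, 162 and 138 of these sums, while Slc7a8 had 10.6, 8.96 and 0.616 CPM per kb. The steadiness of the sum therefore does not hold for each carrier.

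The carriers of growth, redox balance and the lysosome were higher in B than in A for all 7 genes of the list, with no test, since this sets 1 library against 1. Slc38a2, a sodium-coupled glutamine and alanine importer that rises in many cells short of amino acids, had 138, 178 and 76.8 CPM, and its relative Slc38a1 had 66.2, 81.7 and 60.5 CPM. Slc7a1 (chromosome 5, 148327410 to 148399904, minus strand), the arginine and lysine importer, had 52.3, 93.9 and 16.6 CPM. Slc38a9 (chromosome 13, 112660751 to 112738749, plus strand), which senses arginine in the lysosome for mTORC1, had 5.85, 19.3 and 1.26 CPM. The glycine carrier Slc6a9 had 19.2, 27.3 and 9.82 CPM. In these 5 genes B was highest and C lowest.

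Slc7a11, the light chain that imports cystine for glutathione, showed the same order with 10.7, 14.1 and 3.01 CPM. Slc7a2, a second arginine carrier, was the exception in C, with 0.273, 1.57 and 9.68 CPM. The list summed to 59.8, 82.7 and 36.8 CPM per kb. The sums of the sugar and peptide carriers were instead higher in A than in B, and those of the apical and basolateral carriers differed little.

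**Figure D4:**
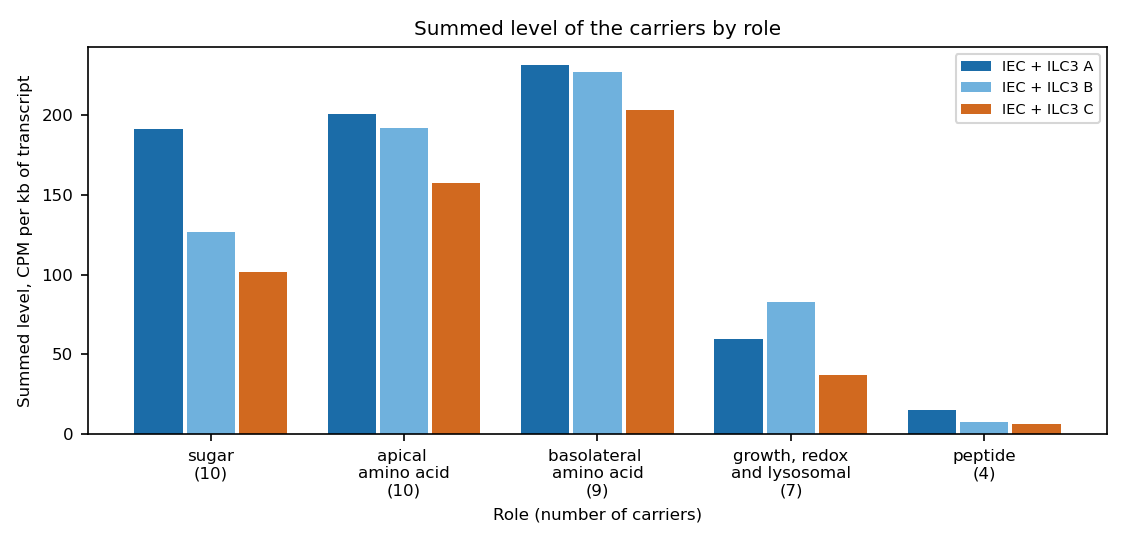
Summed level of the carriers of 5 roles, in CPM per kb of transcript, with 1 bar for each library and the number of carriers in brackets. The sugar carriers summed to 191 in A, 127 in B and 101 in C, and the growth, redox and lysosomal carriers were highest in B at 82.7.

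The promoter of Slc7a11 is shown because it held 2 matches to TGATGNAA, the letters of the element through which ATF4 acts on amino acid response genes. Of all 32851 promoters, 3.97% held a match, and so did 6 of 92 member promoters, which belong to Slc15a5, Slc1a4, Slc6a21, Slc7a11 and Slc7a7. The stretch (RefSeq, GRCm38.p6, chr3:50443614-50443863, minus strand) covers the 250 bases before the start, and the capitals mark the matches, which begin 66 and 47 bases before it and lie on opposite strands.
Slc7a11: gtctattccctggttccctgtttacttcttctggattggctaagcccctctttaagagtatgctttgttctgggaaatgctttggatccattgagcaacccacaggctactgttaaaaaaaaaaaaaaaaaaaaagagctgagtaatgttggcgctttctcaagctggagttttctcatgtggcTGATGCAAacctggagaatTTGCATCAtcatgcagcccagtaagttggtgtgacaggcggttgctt
The match is a description of the letters, and ATF4 binding was not measured. Atf4 itself had 166, 253 and 118 CPM, in the order of Slc7a11. Asns, another gene of the amino acid response, had 226, 245 and 315 CPM and did not show that order. Among further genes of glucose and amino acid sensing, Chac1 showed it with 8.31, 17.1 and 2.38 CPM, while Ddit3 and Trib3 did not. Atf4, Asns, Chac1, Ddit3 and Trib3 were not called in C. Whether ATF4 acts on Slc7a11 in these cells was not tested.

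The peptide carriers were scarce. Slc15a1 (chromosome 14, 121459621 to 121505252, minus strand), the brush border importer PEPT1 of di- and tripeptides, had 38, 37 and 13 counts, which is 2.08, 1.61 and 0.454 CPM, and the exact 95% Poisson interval in C ran from 0.242 to 0.777 CPM (counting error only). Slc5a1 exceeded it per kb by 151, 104 and 352 times. Slc15a4, a lysosomal histidine and peptide carrier, was the leading member at 33.8, 15.1 and 12.4 CPM and exceeded Slc15a1 per kb by 18.6, 10.7 and 31.1 times. Slc15a2 had 3.01, 2.27 and 2.62 CPM, and Slc15a3 had 2, 2 and 0 counts.

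Library B differed from A in both directions. Of the 48 carriers with at least 10 counts in A and B, 22 were higher in B, 26 were lower in B and 28 lay within 1.5-fold. The median size of the difference was 0.40 on the log2 scale, beside 0.35 over all genes with such counts. In 7 carriers with at least 10 counts in A or B, the 2 CPM differed by 4 times or more, all of them at low counts. Slc5a11 had 93 counts in A and 14 in B, Slc15a5 had 18 and 4, Slc6a5 had 18 and 1, and Slc2a7 had 11 and 0. Slc7a2 had 5 and 36, Slc1a2 had 2 and 12, and Slc2a4, the insulin-responsive glucose carrier, had 0 and 28. Enterocyte markers such as Alpi and Fabp1 summed to 6767, 4754 and 5939 CPM in the 3 libraries, and Paneth cell markers to 15302, 21425 and 22823. The part of cell type proportions in these differences was not tested, and in bulk samples fewer cells of a type cannot be told apart from less RNA per cell.

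Library C was then compared with A and B, since this is the only distinction the labels draw between the libraries. Of 57 carriers tested with edgeR's quasi-likelihood test at an adjusted p under 0.1, 5 were called lower in C and 0 higher. Over all 13604 genes tested, 5.20% were called lower and 1.36% higher. The 5 carriers are 8.77% of those tested, which is near the background for so few genes. They are basolateral Slc7a8, apical Slc6a20a and Slc6a19, and Slc7a1 and Slc38a9 of the growth and lysosome list. At an unadjusted p under 0.05, 16 of the 57 carriers were lower and 3 of the 57 higher in C, beside 14.0% and 8.25% of all genes. The DESeq2 Wald test called 9 of the 57 lower and 1 higher, the latter Slc7a2, beside 8.99% and 2.90% of all genes. Of the 8 sugar carriers tested, edgeR called none, 2 were lower at an unadjusted p under 0.05 (Slc2a1 and Slc2a2), and the DESeq2 Wald test called Slc2a2 lower.

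Slc7a8 had the lowest adjusted p (log2 fold change -3.99, SE 0.46, edgeR adjusted p = 0.0146). Slc7a1 followed (log2 fold change -2.14, SE 0.43, edgeR adjusted p = 0.0511), then Slc6a20a (-2.75, SE 0.63, edgeR adjusted p = 0.0661) and Slc6a19 (-1.36, SE 0.32, edgeR adjusted p = 0.0726). Of the 31-base words of Slc6a20a, 32.0% occur in other genes, most of them in its paralog Slc6a20b, which had 9, 24 and 10 counts. Slc38a9 was at the edge (log2 fold change -3.32, SE 0.91, edgeR adjusted p = 0.0990), and against A alone, without B, its log2 difference was -2.16.

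With trends with transcript length and GC content removed, Slc7a8 and Slc6a20a were still called (edgeR adjusted p = 0.0593 and 0.0984), while Slc7a1, Slc6a19 and Slc38a9 crossed the threshold (edgeR adjusted p = 0.103, 0.135 and 0.128) at log2 fold changes of -1.48, -0.89 and -2.86. Over all genes the calls turned from 185 higher and 707 lower to 397 higher and 348 lower. With 1 library against 2 there is 1 residual degree of freedom, the spread of C is assumed equal to that of the others, and the test sets libraries, not conditions, against each other.

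The shift in C was wider than the calls. Of the 57 carriers, 45 had a log2 fold change below 0 and 12 above, which is 78.9% below 0 beside 54.4% of all genes, 65.9% of other solute carriers and 72.4% of ABC transporter genes. The median was -0.68 for the carriers and -0.10 for all genes, a gap of -0.58, and with length and GC trends removed it was -0.15 and 0.23, a gap of -0.38. Among 44 carriers with at least 10 counts in every library, C lay below both A and B for 27, above both for 7 and between them for 10. That is 61.4% below, beside 38.5% of all 11232 genes with such counts. The carriers tested had a median transcript length of 3233 bases and a GC content of 51.3%, beside 2563 bases and 50.4% over all genes tested.

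**Figure D5:**
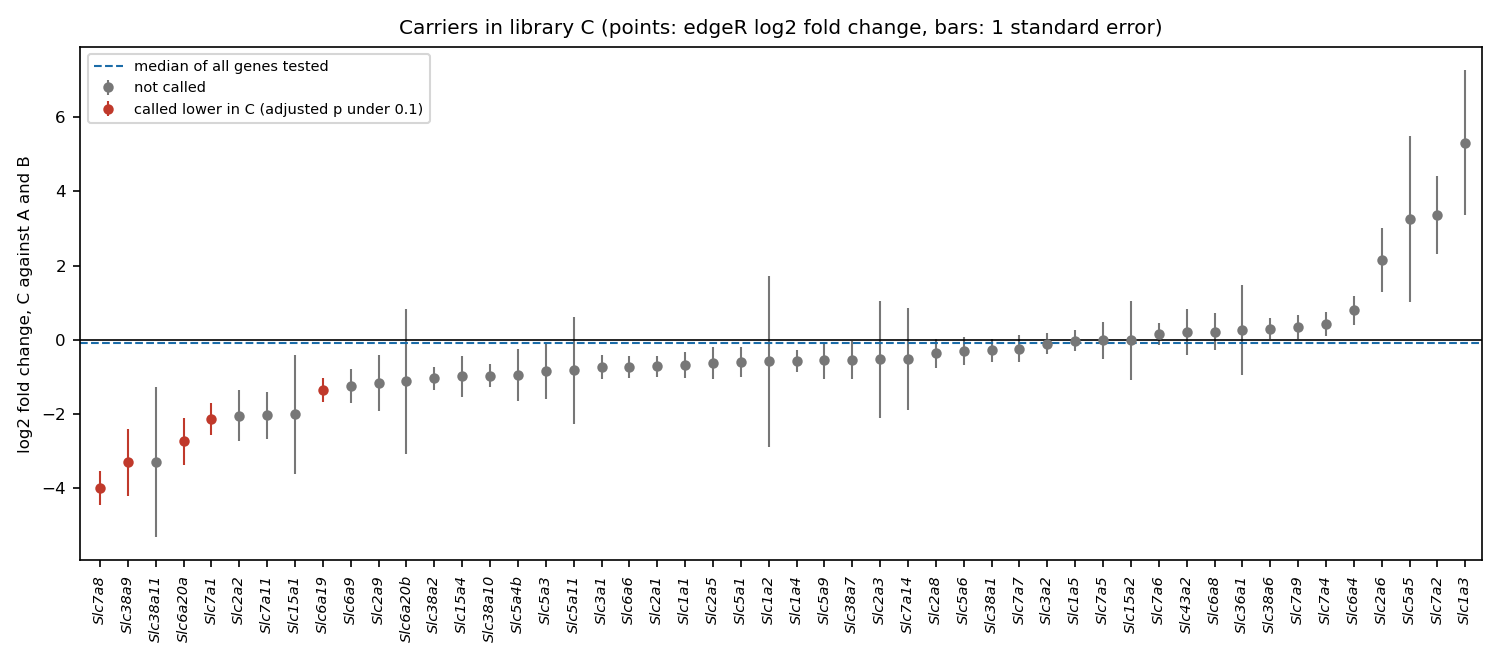
Log2 fold change of library C against A and B for the carriers tested that had counts in C, with bars of 1 standard error, the 5 called lower in red and the median of all genes tested (-0.10) as a dashed line. Slc7a8 lay lowest at -3.99, and most carriers lay between -2 and 0.

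By family, the median log2 fold change in C was -1.50 in Slc15 (4 tested), -1.30 in Slc6 (10 tested, 2 called), -0.98 in Slc38 (7 tested, 1 called), -0.68 in Slc2 (8 tested), -0.60 in Slc5 (7 tested), -0.57 in Slc1 (5 tested), -0.42 in Slc3 (2 tested) and -0.24 in Slc7 (11 tested, 2 called). The single Slc36 gene tested, Slc36a1, had a log2 fold change of 0.25 (SE 1.22), and of the 2 Slc43 genes tested Slc43a2 had 0.20 (SE 0.63) and Slc43a1 was at 0 in C. Scarce genes enter these medians, those of Slc15 and Slc6 most. Slc15a5, Slc6a3, Slc6a5, Slc6a7, Slc7a15 and Slc2a4 were also at 0 in C, and Slc15a1 had 13 counts there (SE 1.61). Other solute carriers outside the 10 families numbered 248, of which 173 were tested, with 6 lower and 2 higher and a median of -0.31. Of 50 ABC transporter genes, 29 were tested, with a median of -0.22, and edgeR called none of them, while 1 was lower and 1 higher at an unadjusted p under 0.05, and likewise by the DESeq2 Wald test.

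Several well-expressed carriers stayed close to their levels in A and B. Slc1a5 differed by -0.03 on the log2 scale (SE 0.28), Slc3a2 by -0.11 (SE 0.29), Slc7a5 by -0.02 (SE 0.50) and Slc7a6 by 0.14 (SE 0.30). Slc7a4, a relative of the arginine carriers with no settled substrate, had 81.5, 55.5 and 92.2 CPM. Standard errors of this size leave room for differences of 1.5-fold or more.

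Slc7a15, Slc6a7, which carries proline, and Slc6a3, the dopamine carrier, had 10 or more counts in both A and B and 0 in C. Against the limit of 3 counts in C, Slc7a15 was at least 11.2-fold lower than the mean of A and B, Slc6a7 at least 11.4-fold and Slc6a3 at least 11.1-fold, and none was called. The same bound was 5.82-fold for Slc2a4, 5.52-fold for Slc15a5, 4.90-fold for Slc6a5, 4.42-fold for Slc43a1 and 2.87-fold for Slc2a7. For 4 of these 5 it rested mostly on 1 library: Slc2a4 had 0 counts in A, Slc2a7 had 0 in B, and Slc6a5 and Slc15a5 had 1 and 4 in B. With these genes at their bounds the median of the carriers remained -0.68. It could not move, because every one of them that was tested lies below that median at its bound.

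The highest log2 fold changes above 0 belonged to scarce carriers, named here after their values were seen. Slc2a6, a lysosomal sugar carrier, had 30, 37 and 209 counts, Slc1a3, a glial glutamate carrier, had 0, 3 and 84, and Slc5a5, the iodide carrier, had 0, 4 and 26. Slc7a2 had 5, 36 and 277 counts (log2 fold change 3.37, SE 1.06, edgeR adjusted p = 0.125). Each had several times more counts in C, and none of the 4 passed the edgeR test.

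The genes around the carriers were read from lists, and how many of them were called depended on the test and threshold used. The median log2 fold change in C was -0.57 for the luminal hydrolases and -0.41 for the partners and ion gradient genes. It was -0.55 for the genes of glucose and amino acid sensing, beside -0.10 for all genes tested. The luminal hydrolases, of which 10 were tested, release the sugars, amino acids and peptides that the carriers take up. Among these 10, Xpnpep2, an aminopeptidase that acts next to proline, had the lowest log2 fold change in C (-2.19, SE 0.46). Its levels were 24.2, 30.5 and 5.98 CPM. Sis, the sucrase and isomaltase of the brush border, had 661, 510 and 261 CPM (log2 fold change -1.17, SE 0.32), and Enpep had a log2 fold change of -1.05. Anpep, Dpp4 and Ggt1 went the other way, at 0.12, 0.44 and 0.54. Of 11 partners and ion gradient genes tested, edgeR called none at an adjusted p under 0.1, with 1 lower at an unadjusted p under 0.05 and 0 by the DESeq2 Wald test.

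Of 15 genes of glucose and amino acid sensing tested, 2 were called lower in C and 0 higher, beside 5.20% and 1.36% of all genes. They are the paralogs Txnip and Arrdc4, both targets of the glucose-responsive factor MondoA and its relative and both known to restrain glucose uptake. Txnip had 368, 379 and 99.1 CPM (log2 fold change -1.92, SE 0.31, edgeR adjusted p = 0.0287). Arrdc4 had 139, 116 and 52.8 CPM (log2 fold change -1.28, SE 0.31, edgeR adjusted p = 0.0778). In both, A and B lay close together and C lay below.

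Markers of other epithelial types moved in the same comparison, in which 5.20% of all genes were called lower. Of 8 goblet cell markers, 4 were called lower in C (Muc2, Fcgbp, Clca1 and Zg16), and of 6 tuft cell markers tested, 4 were called lower, namely Dclk1, Trpm5, Pou2f3 and Sh2d6, with the 7 listed summing to 43.9, 68.1 and 5.42 CPM and the first 3 at 0 in C. Of 15 enterocyte markers 1 was called lower (Cdhr2), and edgeR called none of 10 Paneth and 7 stem cell markers, of which 2 and 1 were higher in C at an unadjusted p under 0.05 and by the DESeq2 Wald test. The goblet cell markers that were not called went both ways in C. Their log2 fold changes were 0.53 for Agr2, 0.67 for Spink4, -0.02 for Spdef and -0.58 for Tff3. The 15 enterocyte markers went both ways too, with a median log2 fold change of -0.09. Fabp1 at 1.06 and Krt20 at 0.70 were the highest of them, and Sis at -1.17 and Cdhr2 at -1.08 the lowest. Whether the carriers called in C moved with these cell types was not tested.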

How the data were processed

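RNA from sorted IEC was made into SMART-Seq2 libraries and sequenced on a HiSeq machine. Reads were trimmed by the authors with Trimmomatic 0.39. They quantified transcripts of Ensembl GRCm38.p6 with Salmon 0.14.1 (the submitters' processing notes give both versions too) and added them up per gene with tximport. The deposited table holds estimated counts, all whole numbers. Salmon divides reads that fit several genes by estimate, and no use of strand is stated.

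Symbols, coordinates and lengths came from GENCODE M21, and 318 identifiers without a symbol took up to 0.0454% of a library's counts and were left in its total. CPM used TMM factors of edgeR 4.0.16 in R 4.3.3. CPM per kb used the median length of the basic protein-coding transcripts of a gene, a choice made after the median over all transcript models was seen to rest on short fragments. Library C was tested against A and B with edgeR's quasi-likelihood test on 13604 genes that passed filterByExpr, adjusted by Benjamini-Hochberg over all of them, with a threshold of 0.1. The test was also tried on counts simulated from the gene means of these libraries and the dispersions of the fit, with an outcome not reported here. Shared sequence was counted as the share of the 31-base words of a gene's transcripts found in transcripts of other genes. Promoters are those of RefSeq, and 69 of 93 carriers had an entry.

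Carriers were named if they were on a role list, among the 10 highest by mean CPM per kb of A and B or the 2 highest of a family, called in C, or 4-fold or more apart between A and B with at least 10 counts in 1 of them. Some genes of the lists are not reported here. The members and all lists were chosen with earlier results of these data known. Alternatives were DESeq2 size factors, library totals, TMM factors from all genes, other filters on low counts, the Wald test of DESeq2 1.42.0, removal of length and GC trends by loess, a threshold of 0.05, other lengths and leaving out a library. Python 3.11.15, pandas 2.3.3, numpy 2.4.6, scipy 1.17.1 and, for the plots, matplotlib 3.10.9 were used.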

Additional observations from a re-analysis of the deposited data

How the results depend on the processing

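The 5 carriers called lower in C became 10 with no filter on low counts, 9 with the DESeq2 Wald test, 2 with length and GC trends removed and 1 at an adjusted p under 0.05. The 0 called higher became 1 with library totals, 2 with no filter and 1 with the DESeq2 Wald test. Over all genes, calls were 825 higher and 1577 lower with no filter, 395 and 1223 with the DESeq2 Wald test, 127 and 572 with TMM factors from all genes, 344 and 686 with at least 10 counts in every library, and 295 and 936 with library totals. The median log2 fold change of the carriers was -0.68. With length and GC trends removed it was -0.15, beside 0.23 for all genes. With at least 10 counts in every library, which kept 44 carriers, it was -0.61 for the carriers. Leaving out A or B gave -0.67 to -0.58, the latter without B. Slc38a9 was not called with DESeq2 size factors or with TMM factors from all genes, and without A or without B its log2 difference was -3.84 or -2.16. No called carrier changed sign under any alternative.

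Family shares turned on the length used. With CPM not divided by length, Slc3 held 13.6%, Slc38 16.5%, Slc43 0.277%, Slc5 15.3% and Slc6 13.4%. With merged exon length, Slc2 held 12.7%, Slc38 8.98% and Slc5 16.6%. With the length of all transcript models, added after the data were seen, Slc1 held 5.91%, Slc15 2.35%, Slc2 13.5%, Slc38 6.63%, Slc43 0.175%, Slc5 5.52% and Slc6 20.7%. In library C alone, also added later, Slc2 held 8.55%, Slc43 0.163%, Slc6 7.02% and Slc7 22.2%, and over all 3 libraries Slc6 held 8.32%. Depth limits the carriers under 10 counts, and no paired analysis was possible because all libraries belong to 1 group.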
